A study of Mus musculus with 40 samples.

Results

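Broad H3K4me3 domains are stretches of chromatin in which histone H3 trimethylated at lysine 4, the mark of active promoters, runs on for several kilobases. They were collected here in cultured mouse oligodendrocyte progenitor cells (OPCs), the proliferating precursors of myelinating oligodendrocytes. A domain was an autosomal H3K4me3 peak of at least 5000 bp, from its first to its last base, in any of the 5 control libraries, merged where such peaks overlapped between control libraries. The domains were thus chosen by control H3K4me3 peak width. This gave 796 domains among 39455 merged autosomal control H3K4me3 regions, or 5.56 Mb of sequence. Control widths of these domains are therefore given as a description and not as a result.

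OPCs were purified with an antibody against PDGFRa from AMGFAP-Cre;K27M litters aged P5 to P7 and kept in proliferation medium without differentiation. That spelling is the one in the sample records, and the paper names the Cre line hGFAP-Cre. K27M cultures express histone H3.3 with lysine 27 replaced by methionine from the endogenous *H3-3a* locus once Cre has removed a stop cassette. The Cre is driven by the human GFAP promoter, which is active in neural stem and progenitor cells, so all their progeny can carry the change. Control cultures came from littermates, and the strain background was FVB. Tissue was pooled over animals by region and genotype, so that each culture is a pool, and neither the animals per pool nor the part of the cells that had recombined can be read from the peak lists. H3K4me3 and H3K27me3 were assayed by ChIP-seq in 2 control and 2 K27M brainstem cultures (59 and 61) and in 3 control and 3 K27M dorsal telencephalon cultures (59, 60 and 61), which the sample labels call cortex. The files are peak lists with no read counts, so depth cannot be read from them. The study's own read totals, which include duplicates, are not used here. In them telencephalon control 59 had the most reads of the H3K4me3 libraries, and whether depth bears on the widths was not tested. The 10 H3K4me3 libraries held 20279 to 30413 autosomal peaks, the median fold enrichment over input at the domains ran from 4.21 to 85.9, and telencephalon control 59 had the shortest peaks and the lowest enrichment. A peak list shows where the signal passed a threshold, and more or better enriched reads join neighbouring peaks into longer ones. Counts that turn on 1 culture are therefore also given without it.

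H3K4me3 is laid down at CpG-rich promoters by the SET1 and MLL complexes, and at most active genes it covers little more than the first nucleosomes. In many cell types the longest stretches lie over the genes of cell identity, such as lineage transcription factors, and extend into the transcribed gene. H3K27me3, the mark of Polycomb complex 2, is found on the same CpG-rich promoters when they are silent or bivalent. H3.3 K27M inhibits that complex. In the oligodendrocyte lineage, OLIG2, SOX10 and NKX2-2 are the central transcription factors and PDGFRa is the receptor through which PDGF drives OPC division.

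The 2 domains with the longest mean control peak both lay on microRNA genes. All 3 loci that encode miR-9, an abundant microRNA of neural progenitors, were inside domains, on chromosomes 3, 7 and 13. Of 919 autosomal hairpins in the RefSeq table (GRCm38.p6), 172 were inside a control H3K4me3 region and 23 inside a domain. The mature sequences below are shown because 3 separate domains hold the same product, and because miR-219, which promotes oligodendrocyte differentiation, and miR-125b lie in a domain each. Capitals mark the seed, bases 2 to 8, with which a microRNA pairs to its targets. The 3 *Mir9* loci share both mature sequences, and no seed is shared between the families.
mmu-miR-9-5p (*Mir9-1*, *Mir9-2* and *Mir9-3*): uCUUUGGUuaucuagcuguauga
mmu-miR-9-3p (the same 3 loci): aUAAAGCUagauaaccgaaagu
mmu-miR-125b-5p (*Mir125b-1*, chromosome 9): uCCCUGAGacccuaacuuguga
mmu-miR-219a-5p (*Mir219a-1*, chromosome 17, in the domain of *Ring1*): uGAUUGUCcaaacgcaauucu

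Promoters inside the domains were not of one kind. The RefSeq promoters below run from 250 bases before to 50 after the start, in the transcribed direction, with each CG in capitals, and are shown for *Olig2* and *Pdgfra*, which were long in both tissues, and for *Emx2*, long in the telencephalon. They held 25, 5 and 26 CG. Of all 27025 promoters in the table, which include those of genes without H3K4me3, 94.2% had at least 1. Promoters of marked genes were not compared, because only 74.7% of the domain genes and 77.5% of the others had an entry. A further pair of windows starts 3000 bases past the *Olig2* and *Pdgfra* starts. They held 6 and 8 CG, and each was wholly inside an H3K4me3 peak in all 10 libraries.
*Olig2* promoter, chr16:91225300-91225599, plus strand: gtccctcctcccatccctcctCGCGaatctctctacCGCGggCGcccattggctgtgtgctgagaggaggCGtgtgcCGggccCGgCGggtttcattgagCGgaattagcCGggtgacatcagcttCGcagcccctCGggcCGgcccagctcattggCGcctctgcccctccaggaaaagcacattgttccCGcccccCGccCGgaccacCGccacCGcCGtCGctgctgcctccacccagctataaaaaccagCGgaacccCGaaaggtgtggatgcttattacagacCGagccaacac
*Olig2* downstream window, chr16:91228549-91228848, plus strand: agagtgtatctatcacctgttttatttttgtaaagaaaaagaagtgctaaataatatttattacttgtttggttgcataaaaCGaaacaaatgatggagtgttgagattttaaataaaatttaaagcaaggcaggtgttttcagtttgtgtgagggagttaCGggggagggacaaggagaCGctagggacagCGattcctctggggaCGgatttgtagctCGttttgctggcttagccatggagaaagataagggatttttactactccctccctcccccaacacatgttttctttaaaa
*Pdgfra* promoter, chr5:75152001-75152300, plus strand: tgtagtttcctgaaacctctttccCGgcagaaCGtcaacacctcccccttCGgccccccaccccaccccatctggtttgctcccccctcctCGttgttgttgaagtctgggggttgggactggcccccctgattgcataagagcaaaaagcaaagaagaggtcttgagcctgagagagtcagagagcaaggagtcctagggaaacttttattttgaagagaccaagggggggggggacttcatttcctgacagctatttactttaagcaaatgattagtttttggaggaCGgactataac
*Pdgfra* downstream window, chr5:75155250-75155549, plus strand: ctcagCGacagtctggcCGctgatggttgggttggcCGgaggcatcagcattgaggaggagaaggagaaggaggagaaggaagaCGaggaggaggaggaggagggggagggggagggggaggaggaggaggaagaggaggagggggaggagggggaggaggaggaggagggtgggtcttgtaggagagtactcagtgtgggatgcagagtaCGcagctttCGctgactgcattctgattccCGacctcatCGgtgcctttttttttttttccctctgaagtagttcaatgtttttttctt
*Emx2* promoter, chr19:59458440-59458739, plus strand: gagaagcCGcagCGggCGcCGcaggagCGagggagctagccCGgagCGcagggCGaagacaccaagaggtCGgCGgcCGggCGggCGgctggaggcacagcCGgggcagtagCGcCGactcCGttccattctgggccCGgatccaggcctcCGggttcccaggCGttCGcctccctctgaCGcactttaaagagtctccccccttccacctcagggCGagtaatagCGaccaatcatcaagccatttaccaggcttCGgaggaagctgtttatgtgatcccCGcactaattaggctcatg

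Domain lengths ran from 5003 to 33764 bp with a median of 6107 bp, and 53 domains were over 10000 bp. The values next to the threshold were 5003 bp at *Rapgef2* and 5005 bp at *Cep57* inside it, and 4998 bp at *Bmpr1a* and 4997 bp at *Phip* outside it. Peaks of at least 5000 bp were found in 1 control library at 265 domains, in 2 at 184, in 3 at 125, in 4 at 127 and in all 5 at 95. Of those 95, 88 were also long in all 5 K27M libraries. A protein-coding transcript started inside 748 domains, a single gene in 622 and several in 126. Another 30 held only starts of noncoding transcripts and 18 held no annotated start.

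The domain with the longest mean control peak spanned *Mir9-2* and its host transcript (chromosome 13, 83712940 to 83743631, mm10). Its longest peak measured 28815 and 30692 bp in the brainstem controls, 29928, 28435 and 21061 bp in telencephalon controls 59, 60 and 61, and 29404 to 30332 bp in the 5 K27M libraries. Telencephalon control 61 stood apart at the low end. The *Mir9-1* domain (chromosome 3, 88199353 to 88233116) was called in 2 lengths, 15625 to 19745 bp in 5 libraries and 30153 to 33519 bp in the other 5, and both brainstem controls had the shorter one, while the other groups had both. At *Mir9-3* (chromosome 7, 79496286 to 79521887) brainstem controls 59 and 61 had the shortest and the longest peak of the 10 libraries, 3734 and 25602 bp.

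Most of the remaining domains among the 12 with the longest mean control peak belonged to transcription factors. They were *Pou3f3* and *Sox2*, factors of neural progenitors, *Nfib*, a gliogenic factor, *Zeb2*, required for oligodendrocyte differentiation, *Sall3*, *Sox6*, which holds OPCs in the immature state, and *Meis2*. *Qk*, an RNA-binding protein needed for myelin, and *Pdgfra* completed the list with 1 domain that held no annotated start (chromosome 15, 85663376 to 85689196), 45787 bp from *Ppara*, the nearest protein-coding start. All 12 were long in every library. At *Sox2* the longest peak was 18653 and 21194 bp in brainstem controls 59 and 61, 31739 and 10739 bp in brainstem K27M 59 and 61, 9782, 18941 and 19983 bp in telencephalon controls 59, 60 and 61, and 18418, 22780 and 32040 bp in the matching K27M cultures. Control and K27M overlapped at *Sox2* in both tissues. At *Pdgfra* (chromosome 5, 75148067 to 75165297) the peak was 15351 and 12590 bp in brainstem controls, against 14319 and 6063 bp in brainstem K27M. In the telencephalon it was 6447, 15738 and 14379 bp in controls and 12767, 14294 and 15982 bp in K27M. The 2 shortest *Pdgfra* peaks were those of brainstem K27M 61 and telencephalon control 59, the libraries with the most divided domains of their tissue.

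**Figure D1:**
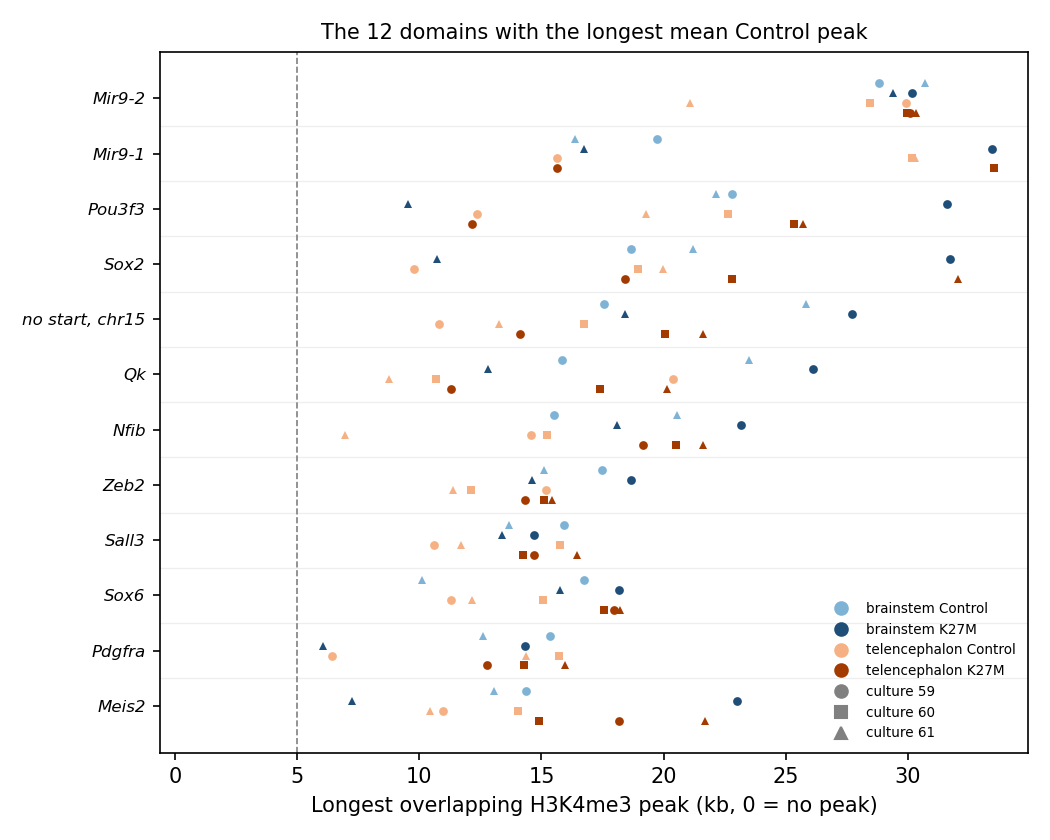
Longest overlapping H3K4me3 peak in kilobases (horizontal axis) in each of the 10 libraries for the 12 domains with the largest mean over the controls. Each point is 1 library, colour gives tissue and genotype, shape gives the culture, and the dashed line marks 5 kb. All points lie past the line, from 6063 to 33519 bp.

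Many genes of the oligodendrocyte lineage started in a domain. Of 13502 protein-coding genes with a start in a control H3K4me3 region, 881, or 6.52%, started in a domain. Of the listed oligodendrocyte lineage transcription factors, 24 of 37 did (64.9%), and of OPC surface and matrix genes 12 of 22 (54.5%). Feedback regulators of receptor tyrosine kinases and immediate early genes had 19 of 29 (65.5%), among them all 3 measured Sprouty genes, which dampen growth factor signalling, *Dusp6*, *Myc*, *Fos* and *Jun*. Myelin and maturation genes had 3 of 10, or 30% (*Bcas1*, *Cnp* and *Fyn*). Astrocyte genes had 2 of 10, or 20% (*Sox9* and *Slc1a2*), and neuron genes 2 of 14, or 14.3% (*Map2* and *Bcl11b*). Microglia genes had an H3K4me3 region at 1 of 10 listed genes and endothelial and mural genes at 6 of 12, with no domain at any. These counts describe lists drawn up with results of these data known, and no test was made of them. The first 3 lists kept 22, 11 and 15 genes, against 4.41% of all genes, when a domain had to be long in at least 2 control libraries.

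Among the lineage factors the *Olig2* domain (chromosome 16, 91219637 to 91234204) measured 10001 and 12704 bp in brainstem controls, 12901 and 9587 bp in the K27M cultures of that tissue, 5729, 14393 and 14344 bp in telencephalon controls, and 10904, 12832 and 13462 bp in telencephalon K27M. *Nkx2-2* was steadier, at 6259 to 11116 bp over the 10 libraries. *Sox8*, a partner of SOX10, was at 7376 to 13576 bp. *Sox10*, on chromosome 15, varied more. Its longest peak was 16135 and 15747 bp in telencephalon controls 60 and 61 but 5522 bp in control 59, 8198 bp in brainstem control 59, 578 bp in brainstem control 61, and 5084 to 10653 bp in the K27M libraries. In brainstem control 61 the domain was called as 4 peaks that together measured 1720 bp. In the same library the longest peak was 571 bp at *Gpr17*, a receptor of OPCs that are about to differentiate, against 7002 bp in brainstem control 59 and 2360 to 8358 bp in telencephalon controls. At *Olig2* and *Pdgfra* that library was not short. In bulk cultures, fewer cells with a mark and less of it per cell cannot be told apart.

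Cell cycle regulators had domains at 7 of 23 genes (30.4%, against 6.52% of all genes with a start in a control H3K4me3 region). *Ccnd1*, the D cyclin through which PDGF acts on division, measured 5846 to 11883 bp over the libraries, and *Cdkn1b* encodes p27, an inhibitor that accompanies cell cycle exit. The longest *Cdkn1b* peak was 6235, 7231 and 5371 bp in telencephalon controls and 11568, 12612 and 12363 bp in telencephalon K27M, without overlap, but summed over its peaks the domain measured 11468, 13076 and 11639 bp in the controls and the same as the single peak in K27M. The groups differed there in how the domain was divided. Genes of the Notch, Wnt and BMP pathways had domains at 9 of 35, or 25.7% (*Dll1*, *Dll3*, *Notch1*, *Lfng*, *Hey1*, *Bmp7*, *Smad7*, *Axin2* and *Wnt7b*). Of the H3K4 and H3K27 methylation machinery, 6 of 29 (20.7%) had one, including the methyltransferases *Kmt2a*, *Kmt2d* and *Setd1b* and the H3K27 demethylase *Kdm6b*. Ribosomal protein and housekeeping genes had 7 of 22 (31.8%), of which *Actb* was at 2115 to 8028 bp. A share above the 6.52% of all genes was thus not particular to the lineage lists.

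Measured from the first start, the domains extended mainly into the gene. In the 622 domains with 1 protein-coding gene, the median distance from the first start was 1239 bp to the upstream edge and 4915 bp to the downstream edge, and the downstream part was the longer in 95.5%. From the last annotated start inside, the medians were 2191 and 3934 bp and the downstream part was longer in 69.6%. For 11743 other single-gene H3K4me3 regions the medians from the first start were 655 and 1480 bp, with 89.3% longer downstream, and from the last start 858 and 1215 bp, with 69.0% longer downstream. From the last start, the share that was longer downstream was thus about the same in the domains and in the other regions. At 2950 bp past the start, 87.1% of single-gene domains were inside a peak in brainstem controls, 84.6% in brainstem K27M, 75.3% in telencephalon controls and 85.9% in telencephalon K27M. At the same distance upstream the 4 values were 10.9% to 12.1%. The telencephalon control values are means over 3 libraries, among them control 59. Its median domain width was 3528 bp, against 5051 and 5112 bp in controls 60 and 61, and its part in the lower mean was not tested.

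**Figure D2:**
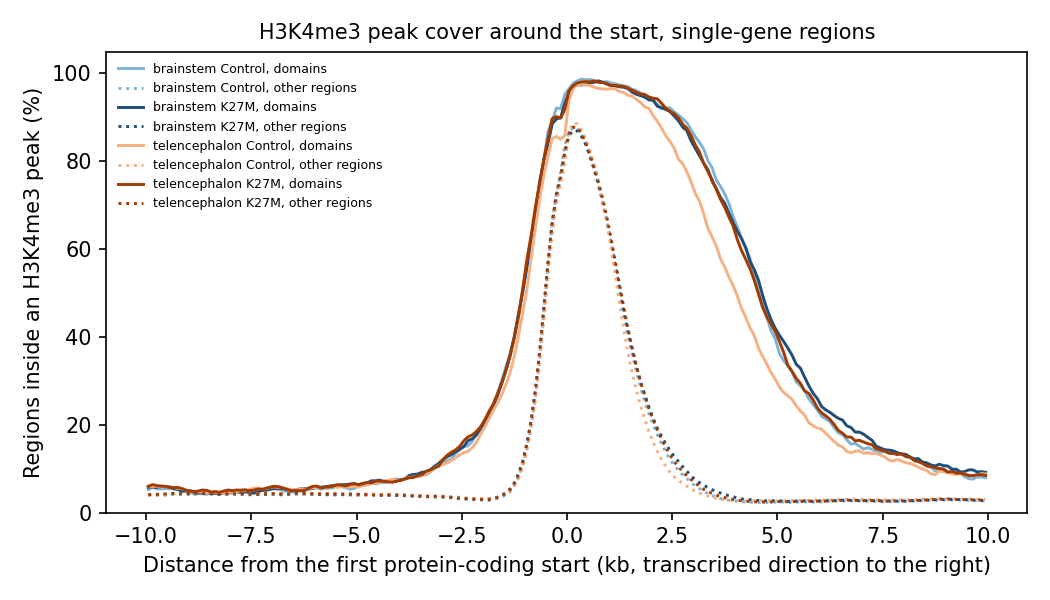
Percent of single-gene regions inside an H3K4me3 peak (vertical axis) by distance from the first protein-coding start in kilobases, with the transcribed direction to the right, as the mean over the libraries of each group. Solid lines are the 622 domains and dotted lines 11743 other H3K4me3 regions. The domain curves fall off slowly to the right, and the telencephalon control curve lies below the others there (75.3% against 84.6% to 87.1% at 2950 bp). That curve includes telencephalon control 59, the library with the shortest peaks.

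CpG-rich sequence did not grow in step with the width. Bases were counted as CpG-rich when inside a 200 bp window with at least 50% GC and a ratio of observed to expected CG of at least 0.6. The median domain held 1981 such bases, against 274, 793, 1104 and 1497 in H3K4me3 regions at a start whose longest control peak was under 1000, 1000 to under 2000, 2000 to under 3000 and 3000 to under 5000 bp. As a share of the region, the medians were 38.6%, 48.8%, 43.4% and 39.7% in the same classes and 31.0% in the domains, so that the share fell from the class at 1000 bp onwards but not from the shortest one. Only 129 domains were CpG-rich over more than 50% of their length. Over the 796 domains, Spearman's rho of the mean control width was 0.24 with CpG-rich bases and −0.06 with their share. These are values across regions of 1 genome, which are not replicates. The 18 domains without an annotated start had a median of 5.65% CpG-rich sequence.

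Widths varied between libraries of the same group. The median longest peak over the domains was 5243 and 5198 bp in brainstem controls 59 and 61, 6180 and 4389 bp in brainstem K27M, 3528, 5051 and 5112 bp in telencephalon controls 59, 60 and 61, and 4250, 5534 and 5758 bp in telencephalon K27M. The share of domains broken into several peaks ran the opposite way, from 19.2% in brainstem K27M 59 to 64.6% in telencephalon control 59. Spearman's rho of the widths over 780 domains with a peak in all 10 libraries was 0.15 to 0.84 between libraries of the same group and 0.46 to 0.83 between the K27M and control libraries of a culture. Between all other pairs of libraries it was 0.22 to 0.76. The medians were 0.64, 0.58 and 0.55 in that order.

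Whether K27M changed the width of the domains was asked within the 5 matched cultures. So that the control being compared did not also choose its domains, they were chosen for each culture in the other 4 controls. The median log2 ratio of K27M to control was 0.21 in brainstem culture 59 and −0.17 in brainstem culture 61, and 0.15, 0.17 and 0.24 in telencephalon cultures 59, 60 and 61. K27M was longer in 4 of 5 cultures, by a mean of 0.12 on the log2 scale (SD 0.16, n = 5, two-sided exact sign-flip permutation test p = 0.19). The smallest p that 5 pairs allow is 0.062, so that this test could not have passed 0.05. The 13877 regions with a peak in all 10 libraries shifted the same way, by 0.20, −0.17, 0.16, 0.11 and 0.11. Relative to that library-wide shift the domains differed by 0.01, 0.01, −0.02, 0.06 and 0.13, a mean of 0.04 with 4 of 5 above 0 (exact sign-flip permutation p = 0.31, a comparison added after seeing the data). With each width divided by its library's median, the mean ratio was 0.02 (exact sign-flip permutation p = 0.62). The mean ratio was 0.02 in the brainstem and 0.19 in the telencephalon, a difference of 0.17 (exact permutation test over 10 splits, p = 0.40, smallest possible 0.1). Without brainstem culture 61 this difference was −0.014.

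**Figure D3:**
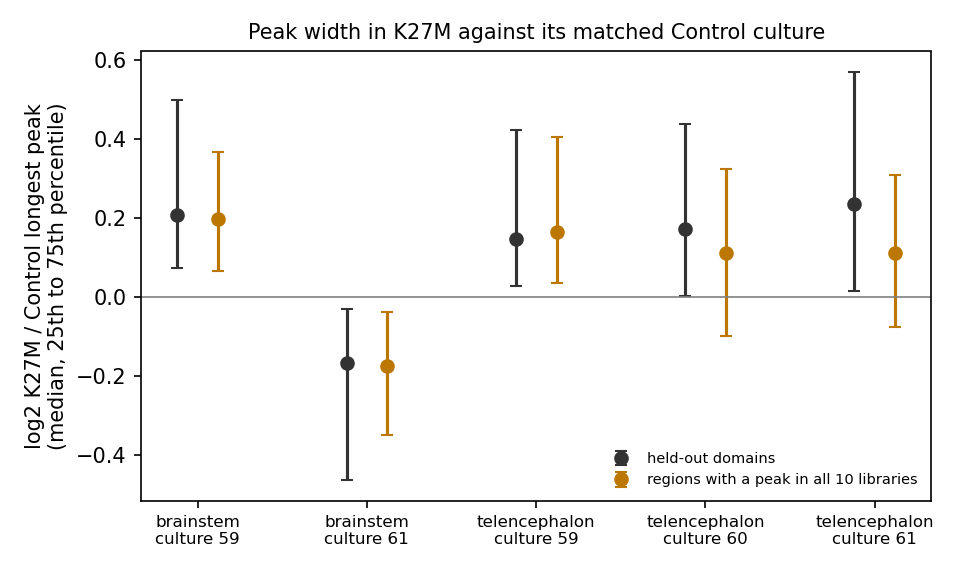
log2 ratio of the longest peak in K27M to that in the matched control culture (vertical axis), for domains chosen in the other 4 controls and for the 13877 regions with a peak in all 10 libraries. Points are medians and bars run from the 25th to the 75th percentile over regions. Brainstem culture 61 is the pair below 0 for both sets (−0.17 and −0.17).

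In single domains the groups separated more often in the telencephalon than in the brainstem by raw width, but less often relative to the library median. Groups of 2 brainstem and 3 telencephalon libraries are not equally likely to separate by chance, so the tissues are not directly comparable. Of 789 domains with a peak in every brainstem library, 30 were shorter and 48 longer in K27M without overlap, or 3.8% and 6.08%, against 3.8% and 7.82% of all 16015 such regions, so that the share was near the background. Without brainstem culture 59 the counts were 654 and 136, and without culture 61 they were 145 and 645. Of 786 domains with a peak in every telencephalon library, 0 were shorter and 171 were longer (21.8%), against 0.0488% and 14.7% of 14340 regions. Without telencephalon culture 59 the counts were 95 and 441. With each width divided by its library's median the telencephalon counts were 28 and 66 (3.56% and 8.40%, against 5.96% and 5.43% of all regions), and the brainstem counts were 134 and 94 (16.98% and 11.9%, against 14.0% and 14.4%), so that more brainstem domains were then shorter than longer. The rule used the control widths, so these counts describe the domains and no test was made.

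Several of the largest separations in the brainstem were at patterning factors. Shorter in K27M were *En1*, a midbrain and hindbrain patterning factor, at 6925 and 2025 bp in controls against 486 and 699 bp in K27M, and *Tfap2a*, a neural crest factor, at 5325 and 1312 against 711 and 429 bp. *Nrn1* and *Onecut2* were next, with log2 differences of −1.56 and −1.19. *Nrn1* was at 1670 and 925 bp in brainstem controls against 662 and 270 bp in K27M. *Onecut2* was at 2526 and 2352 against 1537 and 747 bp. Neither reached 5000 bp in a brainstem control, and *En1* and *Tfap2a* did so only in control 59. *En1* was chosen by that library alone, so its fall is partly set by the choice of domains. At these 4, H3K27me3 covered 100% of the domain in both brainstem K27M cultures. It also covered them in the controls, at 0% and 100% for *En1*, 100% and 100% for *Tfap2a* and *Nrn1*, and 68.1% and 100% for *Onecut2*. Longer in brainstem K27M were *Zic2*, a dorsal patterning factor, at 1966 and 6074 against 8957 and 9651 bp, *Zbtb18*, *Skida1* and *Hnrnpl* (log2 differences of 1.43, 0.82, 0.76 and 0.76). H3K27me3 covered 100% and 0% of the *Zic2* domain in brainstem controls and 100% and 69.1% in K27M. In the telencephalon the largest rises were at *Tenm2*, at 2265, 1318 and 1683 bp in controls and 3289, 4478 and 5310 bp in K27M, *Csrnp3*, the glutamate transporter gene *Slc1a2* and *E130114P18Rik* (1.32, 1.11, 1.04 and 1.03). H3K27me3 covered 9.28%, 33.4% and 24.4% of the *Tenm2* domain in telencephalon controls and had no peak there in K27M. When all peaks in a domain were summed, the difference was 0.11 for *Zbtb18*, 0.24 for *Hnrnpl* and 0.60 for *Skida1*, and 0.72 for *Slc1a2*, 0.78 for *Csrnp3* and 0.79 for *E130114P18Rik*.

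Tissue of origin set a small number of domains apart. In the K27M libraries, whose widths chose no domain, the median log2 longest peak was 0.02 lower in the telencephalon than in the brainstem (exact permutation test over 10 splits, p = 0.90), and the K27M medians were 6183 and 4404 bp in the brainstem and 4278, 5539 and 5763 bp in the telencephalon. Of 784 domains with a peak in every K27M library, 34 were longer in the brainstem without overlap (4.34%) and 14 in the telencephalon (1.79%). Over all 15760 such regions the values were 2.29% and 2.16%. Of the 34, 33 also had the larger control mean in the brainstem, and 25 had control widths that did not overlap between tissues. Of the 14, 10 and 3 did. The rule used the control widths, so this agreement is partly set by the choice of domains. Without brainstem K27M 61 the 34 became 455, without telencephalon K27M 61 it became 65, and the 14 became 343 without brainstem K27M 59 and 131 without telencephalon K27M 59.

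Brainstem domains were led by positional factors. At *Irx5*, a homeobox factor, the longest peak was 9965 and 10784 bp in controls and 11702 and 10773 bp in K27M of the brainstem, and 1220, 5643 and 5975 bp in controls and 1222, 1861 and 2077 bp in K27M of the telencephalon. *Irx2* followed the same order, at 7831 to 12193 bp in the brainstem and 876 to 5706 bp in the telencephalon. *Irx1* was at 5082 to 8081 bp in the brainstem and 1817 to 6866 bp in the telencephalon, so that its tissues overlapped over all libraries. In K27M its nearest values were 6935 bp in the brainstem and 6866 bp in the telencephalon. *Meis1*, a cofactor of Hox proteins, was at 11820 to 15096 bp in the 4 brainstem libraries and 3524 to 8253 bp in the 6 telencephalon libraries. None of these 4 overlapped between the tissues in K27M. *Sox2ot*, the noncoding transcript that runs over *Sox2*, was longer in brainstem K27M as well, at 10075 and 4527 bp against 919, 840 and 2425 bp, but its controls overlapped.

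Fewer domains were longer in the telencephalon, and their share in K27M (1.79%) was near that of all regions (2.16%). *Emx2*, a cortical patterning factor, was at 5062 to 7933 bp in the telencephalon libraries, 1947 and 797 bp in brainstem controls and without a peak in brainstem K27M. *Otx1*, a forebrain factor, was at 3126, 5879 and 3888 bp in telencephalon controls and 4754, 10169 and 14326 bp in K27M, and at 819 to 1952 bp in the brainstem. *Tox* was longer in telencephalon K27M, at 5117, 5318 and 5540 bp against 2853 and 2730 bp, while its controls overlapped. *Emx2* and the *Neat1* locus were among the 3 domains long in every telencephalon control and no brainstem control. The reverse held for 69. With 2 brainstem and 3 telencephalon controls these counts are not directly comparable. Leaving out telencephalon control 59 turned 3 into 64 and 69 into 90. Leaving out brainstem control 59 or 61 gave 152 or 147 in place of 69 and 8 or 7 in place of 3. Of 23 forebrain factors with an H3K4me3 region, 8 had a domain in any tissue (34.8%), and of 29 hindbrain and spinal factors, 13 (44.8%). Over all genes the share was 6.52%. Not all of them followed the region of their list. In K27M the forebrain factor *Nr2f2* was at 7325 and 4804 bp in the brainstem and 1695, 5114 and 4979 bp in the telencephalon. *En2*, of the hindbrain list, was at 2704 and 4375 bp against 3144, 5372 and 4542 bp.

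**Figure D4:**
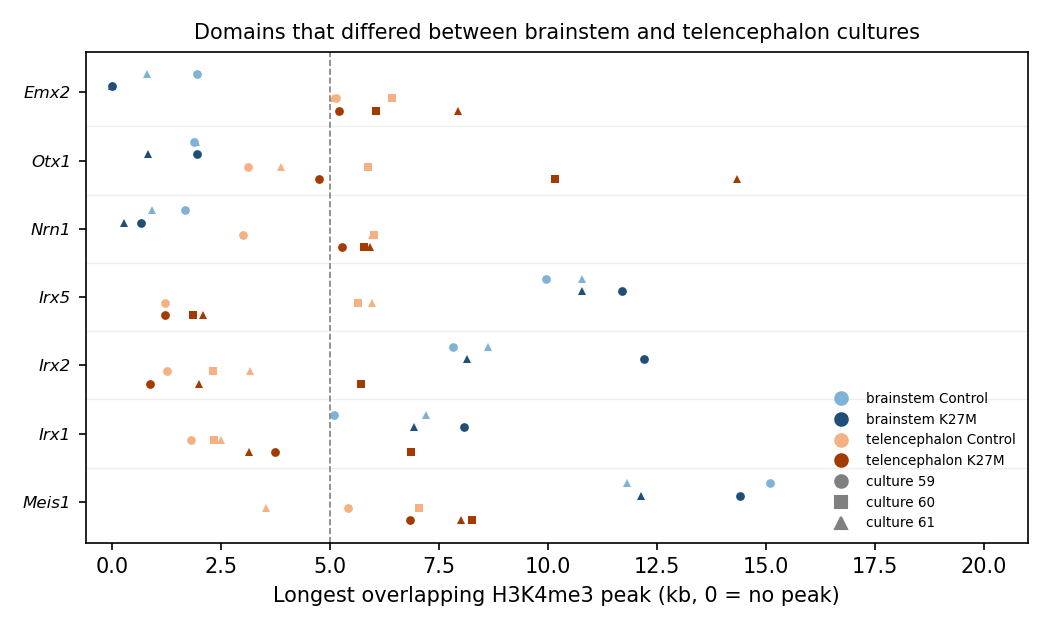
Longest overlapping H3K4me3 peak in kilobases (horizontal axis, 0 for no peak) in each library, at domains of patterning genes and *Nrn1* that were longer in one tissue. Points, colours, shapes and dashed line are as in the plot of the longest domains. *Emx2* has no peak in brainstem K27M, and at *Irx5* the 4 brainstem libraries lie between 9965 and 11702 bp.

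H3K27me3, a mark the rule did not use, lay on the *Irx* domains and *Emx2* in the other tissue, but not on most domains that differed. Of the 34 longer in brainstem K27M, 5 to 9 had an H3K27me3 peak in a telencephalon library and 0 to 5 in a brainstem library. Of the 14 longer in telencephalon K27M, 2 to 4 had one in a brainstem library and 1 to 3 in a telencephalon library. Over all 796 domains the share was 4.02% to 10.7% by telencephalon library and 4.52% to 9.80% by brainstem library. It covered 87.1% to 100% of the *Irx5* domain in the 6 telencephalon libraries and 0% to 3.87% in the 4 brainstem libraries. On *Irx2* the values were 92.3% to 100% and 0%, and on *Irx1* 68.9% to 100% and 0%. On *Emx2* H3K27me3 covered 100% in all 4 brainstem libraries. In the telencephalon it covered 0%, 33.9% and 0% of *Emx2* in controls and 0%, 100% and 0% in K27M, so that K27M culture 60 had both marks over the domain. *Otx1* carried it in both tissues, over 91.4% to 100% of the domain in the 4 brainstem libraries and 0%, 100% and 57.3% in telencephalon controls and 13.8%, 62.8% and 0% in telencephalon K27M. *Meis1* had almost none in either tissue, with 12.9% in 1 library.

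Most domains carried no H3K27me3. It was absent as a peak from 675 of 796 domains in all 5 controls and from 669 in all 10 libraries. In brainstem controls 9.80% and 5.65% of domains overlapped an H3K27me3 peak, and in telencephalon controls 4.02%, 10.7% and 10.1%, a mean of 8.04% ± 3.00 (SD, n = 5). In 14080 other H3K4me3 regions at a transcript start the control values were 27.8% and 18.0%, and 11.7%, 25.5% and 27.7%, a mean of 22.1% ± 7.1. The domains were lower in 5 of 5 controls, by a mean of 14.1 percentage points (SD 4.29, two-sided exact sign-flip permutation test p = 0.062, the smallest possible). Within 500 bp to each side of the centre of the longest peak, a window of one size for all regions, the mean difference was −15.3 points.

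The share of domains with H3K27me3 was lower in K27M in 4 of 5 cultures. It moved from 9.80% to 4.52% in brainstem culture 59, from 5.65% to 5.15% in brainstem culture 61, from 4.02% to 4.27% in telencephalon culture 59, and from 10.7% to 6.28% and 10.1% to 6.16% in telencephalon cultures 60 and 61. In the other H3K4me3 regions it fell in 5 of 5 cultures, from 27.8% to 13.0% and 18.0% to 14.0% in the brainstem and from 11.7% to 8.69%, 25.5% to 14.8% and 27.7% to 13.3% in the telencephalon. The mean difference at the domains was −2.76 percentage points (SD 2.47, n = 5, exact sign-flip permutation test p = 0.13). The number of H3K27me3 peaks in the whole autosomal list went from 12526 to 53757 in controls to 3941 to 7770 in K27M, and its part in this difference was not tested. As the mean share of domain bases covered, the difference was −0.21 points. Where a peak was present it covered a median of 18.2% to 66.5% of the domain in controls and 61.1% to 89.6% in K27M, and the domains covered over at least 50% numbered 19 to 31 in controls and 20 to 31 in K27M.

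**Figure D5:**
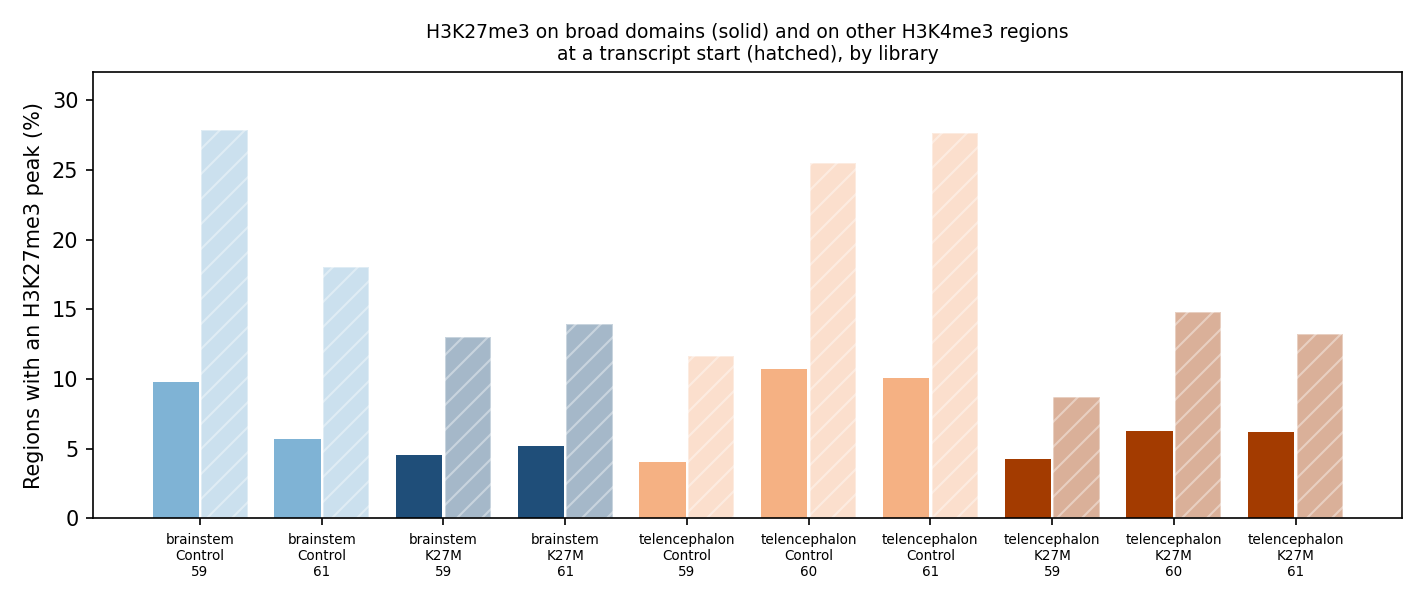
Percent of regions that overlap an H3K27me3 peak by at least 1 bp (vertical axis) in each of the 10 libraries, for the 796 domains (solid bars) and 14080 other H3K4me3 regions at a transcript start (hatched bars). The domains lie below the other regions in every library, at 4.02% to 10.7% against 8.69% to 27.8%.

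H3K27me3 was found in every brainstem control at 32 domains (4.02%), against 17.4% of the other regions, and in every telencephalon control at 31 (3.89%), against 11.5%. Of these, 26 and 25 kept a peak in every K27M library of the tissue, and 5 and 2 had it in none. As shares, 81.2% and 80.6% of these domains kept it and 15.6% and 6.45% had it in no K27M library, against 69.3% and 72.6%, and 21.2% and 5.06%, in the other regions. Without brainstem control 61 the 32 became 78, and without telencephalon control 59 the 31 became 62. Both sets shared 18 domains, of which 14 had it in all 5 K27M libraries as well. They included *Fgf9*, *Ccnd2*, another D cyclin, *Nr2f2*, *Cyp26b1*, which degrades retinoic acid, and *Egr2*, where it covered a mean of 84.8%, 81.9%, 58.0%, 99.8% and 42.0% of the domain in controls and 88.1%, 96.1%, 62.7%, 99.4% and 32.1% in K27M. At *Nr2f2* the means hide a tissue difference, with 2.32% to 13.0% of the domain covered in the brainstem libraries and 80.5% to 100% in the telencephalon. *Pdgfa*, a ligand of PDGFRa, had H3K27me3 over a mean of 24.1% of its domain in controls and 1.33% in K27M, where 1 of 5 libraries had a peak. *Bcl11a*, *Plxna2*, *Egr3*, *Sall1* and *Zfp503* also had it in every control of a tissue. *Olig2*, *Sox10*, *Sox2* and *Pdgfra* had no H3K27me3 peak in any library. *Nkx2-2* had none in a control but had one in brainstem K27M 61 and in telencephalon K27M 60 and 61. The domains with H3K27me3 in every control had a median of 66.6% CpG-rich sequence and those with it in none 29.5%.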

How the data were processed

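H3K4me3 and H3K27me3 peak lists of 20 libraries were used. Reads were mapped by the authors (BWA 0.7.17-r1188, mm10, per the submitters' processing notes), who called peaks with MACS2 2.2.7.1 against each library's own input, narrow for H3K4me3 and broad for H3K27me3, without pooling replicates and without the spike-in. The deposited files give each peak's position, a ratio (fold enrichment over input) and a score, a whole number left unused here. Deposited significance is on the −log10 scale, for the p-value and for the q-value. Inputs, other assays and signal tracks were not analysed here, and some domains are not reported here.

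The domains, gene lists and tests were chosen with earlier results of these data known. Peaks were merged, measured and annotated in Python with numpy 2.4.6 and scipy 1.17.1. The width in a library was that of the longest peak overlapping the domain by at least 1 bp. Transcript starts came from GENCODE M21 on GRCm38, the assembly of mm10, whereas the paper used a later release. CpG content was read from GRCm38.p6, and no region passed a chromosome end. Functions were tested on simulated data.

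Named domains were the 12 longest, up to 8 per list for lineage factors, OPC surface genes and patterning factors, the 4 largest separations per direction between genotypes in each tissue and between tissues in K27M, and up to 6 per tissue with H3K27me3 in every control. Others are members of a listed gene group, or were named after their values were seen (the *Mir9*, *Mir125b-1* and *Mir219a-1* loci, *Neat1*, *Cyp26b1*, *Pdgfa* and those of the closing section).

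Matched cultures were paired as in the study, which matched K27M and control by culture. As a check, deviations of log2 width from the group mean correlated between same-numbered libraries with r of 0.60, 0.39 and 0.34 in telencephalon cultures 59, 60 and 61 and −0.19 in the brainstem, over 780 domains. Cultures are pools of animals, so p-values measure the spread between cultures. Alternatives were other minimum lengths, summed widths, widths relative to the library median, stricter q-values, other overlaps, no pairing, and each culture left out.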

Additional observations from a re-analysis of the deposited data

Results flagged for a closer look

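The K27M to control width ratio of brainstem culture 61, −0.17 on the log2 scale over domains chosen in the other 4 controls, lay apart from the other 4 cultures (0.15 to 0.24). Its gap to the nearest culture was 0.78 of the whole range, over Dixon's 95% value of 0.71 for 5 values. Chance alone gives this in about 1 in 20 such groups, and 3 sets of 5 cultures were looked at. In this culture the K27M library had 434 of 796 domains in several peaks and its control 283, against 153 and 302 in brainstem culture 59, and whether this bears on the ratio was not tested.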

How the results depend on the processing

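Of 192 values under alternative settings, 140 kept their direction and side of the threshold or stayed within the range set for counts. Counts of non-overlapping domains moved most. For K27M shorter in the brainstem the count was 50 at a minimum length of 4000 bp, 16 at 6000 bp and 134 relative to the library median, and for K27M longer it was 98, 20 and 94, with 31 for domains long in at least 2 controls. Relative to the median, all regions gave 14.0% shorter and 14.4% longer, against 16.98% and 11.9% of the domains. In the telencephalon, K27M shorter gave 28 relative to the library median, and K27M longer gave 352, 84 and 66 in the same order. Leaving out 1 culture gave 145 to 654 and 136 to 645 domains in the brainstem (shorter and longer) and 1 to 95 and 209 to 441 in the telencephalon, where culture 59 gave the highest counts.

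The tissue difference of the width ratio was −0.014 to 0.35 with 1 culture left out, and that of the K27M widths −0.26 to 0.23, positive without brainstem culture 59 (0.23) or telencephalon culture 59 (0.11). The cause was not tested. The following were chosen after seeing the data. Domains long only in brainstem controls numbered 42 relative to the library median and 85 to 152 with 1 library left out, those long only in telencephalon controls 5 and 3 to 64. Domains longer in brainstem K27M numbered 92 and 35 to 455, and in telencephalon K27M 53 and 15 to 343. H3K27me3 in every control was found at 45 to 78 domains in the brainstem and 31 to 62 in the telencephalon with 1 culture left out.

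Without the pairing of cultures, the no replicate block value was 0.15 for the width ratio (exact permutation p = 0.35) and −2.76 points for H3K27me3 (exact permutation p = 0.13), and the K27M widths of cultures 59 and 61 paired across tissues differed by −0.07. With the brainstem numbers crossed, 0 calls were made in either pairing. Peak lists hold no read counts, and the part of depth and enrichment in the widths was not tested.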

Other observations

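Some genes held more than 1 domain. *Tcf4*, a basic helix-loop-helix factor active in oligodendrocyte differentiation, started transcripts in 5 separate domains along chromosome 18, *Jmjd1c*, a histone demethylase gene, in 3, and 10 other genes, among them *Sox6* and *Gse1*, in 2 each. A *Tcf4* domain (69518637 to 69528235) was longer in telencephalon K27M, at 6824, 11679 and 14254 bp, than in brainstem K27M, at 6558 and 5311 bp. In controls it was 2585 and 6363 bp in the brainstem and 7029, 7057 and 9599 bp in the telencephalon.

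K27M libraries held 1093 merged long regions, of which 65.0% overlapped a domain. The other 383 were never at 5000 bp in a control, and 221 of them were long in brainstem K27M 59 alone. In 76.2% the longest control peak reached at least 4000 bp. Only *Igf2bp3*, an RNA-binding protein of fetal tissues, and *Phip* were long in all 5 K27M libraries. At *Igf2bp3* (chromosome 6, 49209311 to 49218777) the peak was 9467 and 7514 bp in brainstem K27M and 6542, 6215 and 9287 bp in telencephalon K27M, against 1761 and 1719 bp in brainstem controls and 1035, 3807 and 2644 bp in telencephalon controls. At *Phip* the K27M values were 5005 to 6111 bp and the highest control value 4997 bp. *Sox1* and *Mir124-2hg* were long in 4 of 5 K27M libraries. These regions were chosen on their K27M widths and were not tested.

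Of the 18 domains without an annotated start, 1 lay 30626 bp from *Olig1* (chromosome 16, 91300398 to 91305444). It reached 5047 bp in brainstem control 61, 707 bp in brainstem control 59 and 1156 to 2988 bp in telencephalon controls.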
